A study of Sus scrofa with 14 samples.

Results

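Transcripts of 6 genes that are used to mark or regulate luminal progenitor cells of the mammary gland, KIT, KITLG, ALDH1A3, CD14, SOX9 and SOX10, were followed through a reproductive cycle of the sow. The genes were taken by symbol, and 6 of 6 were found among the 30071 gene identifiers of the counts. Single-nucleus RNA sequencing covered frozen mammary glands of 10 multiparous sows in their second breeding cycle, 2 each at day 90 of gestation (G90), day 0 of lactation (L0), day 20 of lactation (L20), and 2 days (PI2) and 7 days (PI7) after the start of natural involution. The labels name no transgene or treatment in any group. Spatial transcriptomics covered 1 gland section at G90 and 1 at PI2. Single-cell RNA sequencing covered 1 library labelled L0 and 1 labelled L20, which the study describes as cells of colostrum and of mature milk although their labels name the gland.

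The ducts and alveoli of the mammary gland have an inner luminal layer, which holds the cells that make milk and the hormone-sensing cells, and an outer contractile myoepithelial layer. Luminal progenitors are the cells of the inner layer that divide and give rise to the milk-producing lineage. KIT is a receptor tyrosine kinase at their surface, and KITLG (stem cell factor) is its ligand. ALDH1A3 makes retinoic acid from retinaldehyde. CD14 is a co-receptor for bacterial lipopolysaccharide, best known on monocytes and macrophages. SOX9 and SOX10 are related transcription factors of epithelial progenitors, and SOX10 also marks glia.

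In the Sscrofa11.1 annotation of RefSeq, KIT (ENSSSCG00000008842) lies at chr8:41402334-41492306 on the plus strand and KITLG (ENSSSCG00000035495) at chr5:94016992-94110219 on the plus strand. ALDH1A3 (ENSSSCG00000004822) lies at chr1:139451080-139491514 on the plus strand, and its first 536 bases overlap LOC106509041 on the minus strand. The sources used here do not state the strand used in counting, so reads from that overlap cannot be told apart. CD14 (ENSSSCG00000014369) lies at chr2:142348036-142349686 and SOX9 (ENSSSCG00000017251) at chr12:8642154-8647315, both on the minus strand, and SOX10 (ENSSSCG00000039315) at chr5:9890439-9901746 on the plus strand. Counts were assigned to whole genes, so no value belongs to a single exon.

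The 250 bases before the annotated start of the receptor and of its ligand are shown because, by the median ratio of myoepithelial-like to luminal-like level, KIT (0.291) and KITLG (5.15) lay furthest from 1. The KIT window is chr8:41402084-41402333 and the KITLG window is chr5:94016742-94016991, both on the plus strand of Sscrofa11.1 and written 5′ to 3′. Capitals mark matches to the SOX-type motif AACAAT or its reverse complement ATTGTT.
KIT upstream: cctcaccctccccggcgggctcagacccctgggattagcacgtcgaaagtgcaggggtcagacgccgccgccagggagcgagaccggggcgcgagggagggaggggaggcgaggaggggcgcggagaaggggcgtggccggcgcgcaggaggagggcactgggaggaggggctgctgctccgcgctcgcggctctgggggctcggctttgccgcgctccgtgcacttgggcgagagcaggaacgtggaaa
KITLG upstream: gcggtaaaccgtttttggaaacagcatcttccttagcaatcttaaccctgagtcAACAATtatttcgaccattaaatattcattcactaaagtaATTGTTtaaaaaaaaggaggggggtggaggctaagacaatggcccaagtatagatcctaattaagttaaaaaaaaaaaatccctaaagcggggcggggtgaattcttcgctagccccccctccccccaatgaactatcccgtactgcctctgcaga
The KIT window had 73.6% G and C and no match, and the KITLG window had 42.4% G and C and 2 matches, which began 196 and 156 bases before the start. No match was found in the windows of ALDH1A3, CD14, SOX9 and SOX10. Of 19559 upstream windows of this length in the genome, 1382 (7.07%) held the motif on either strand. The nuclear receptor half-site AGGTCA, or its reverse complement TGACCT, was found in 2396 windows (12.3%) and in none of the 6 members. These matches describe letters in a window.

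Of 126833 nuclei kept, 92935 were assigned to a class by its marker genes and 60649 were luminal-like, between 1339 (L20 replicate 2) and 12661 (G90 replicate 2) per gland. None of the 6 genes was used in this assignment. Total UMIs (unique molecular identifiers, counts of captured transcripts) ranged from 18700704 to 53161349 per gland, and the median per nucleus from 1382 to 2496. Between 5.02% and 44.3% of assigned nuclei also carried at least 2 markers of a second class. The milk protein genes CSN1S1, CSN2, CSN3 and LALBA took 1.13% and 0.827% of UMIs at L0, but 0.0854% and 0.0107% in the libraries labelled L20, below the 0.121% and 0.812% at G90. They took 0.0384% and 0.1001% at PI2, around the value of L20 replicate 1, and 0.0115% and 0.0197% at PI7. Because these RNAs were lower at L20 than at L0 and G90, comparisons were also run without both L20 libraries. By the share of luminal-like nuclei, L20 replicate 1 (55.7%) lay between the G90 sows (46.4% and 67.7%), while L20 replicate 2 (8.84%) lay below every other gland. Cell barcodes shared by a pair of gland libraries were at most 1.23% of the smaller library. Of the lists for other cells, mast-like nuclei numbered 2 in all, Schwann-like nuclei at most 1 per gland and neutrophil-like nuclei at most 5 per gland, so KIT of mast cells and SOX10 of glia could not be followed. These lists were incomplete, with 3 of 6 mast, 5 of 7 Schwann and 4 of 6 neutrophil markers found in the counts. The low numbers therefore do not show that these cells were absent, and whether such nuclei lay in other classes or unassigned was not tested.

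Levels across cell classes were compared with UMIs summed per sow and class, given as counts per 1000000 UMIs of that sum (CPM), with the sow as a block. A difference was called at a Benjamini-Hochberg adjusted p under 0.05 over all 14235 genes tested and a log2 fold change over 1 in size, by the quasi-likelihood test of edgeR. Luminal-like nuclei had higher levels than the mean of the other classes for 5 of the 6 genes, against 12.5% of all genes called higher there. The log2 fold changes were 2.00 for KIT (SE 0.14, adjusted p = 4.85e-23, edgeR), 2.12 for ALDH1A3, 2.01 for SOX9, 1.66 for SOX10 and 1.58 for CD14, where the median of all genes was 0.30. Each call held in 8 alternatives, but the values ran from 1.49 to 3.60 for SOX9, 1.199 to 2.68 for SOX10, 1.15 to 2.68 for CD14, 1.68 to 2.39 for ALDH1A3 and 1.52 to 2.37 for KIT, lowest by DESeq2 and highest with 3 markers a class. KITLG did not pass (-0.39, SE 0.22, adjusted p = 0.123, edgeR). In all, 18 of 60 tests of a gene in a class were called, against 13.3% of the tests of all genes, and 16 were called without both L20 libraries. The share of the tests of all genes called without these libraries is not given here.

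KIT was highest in luminal-like nuclei of 8 of 10 sows and in blood endothelial-like nuclei of the other 2. Over the 10 sows its luminal level ranged from 86.2 CPM (PI2 replicate 2) over a median of 684 to 1536 CPM (L0 replicate 2). In blood endothelial-like nuclei the range was 210 to 1047 CPM with a median of 423, and this class was also called higher than the others (1.33 on the log2 scale, against 8.55% of all genes). These classes overlapped, and the luminal excess over blood endothelial-like nuclei was 0.35 ± 1.05 on the log2 scale (SD, n = 10 sows; exact sign-flip permutation test, p = 0.322, adjusted p = 0.674). Lymphatic endothelial-like nuclei had a median of 336 CPM, with a log2 fold change of 0.91 that stayed under the size needed for a call (adjusted p = 3.99e-06, edgeR). The medians were lower in B and plasma-like (268 CPM), myoepithelial-like (174), T and NK-like (170), fibroblast-like (135) and macrophage-like nuclei (123).

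A KIT UMI was found in 12.6% to 83.1% of luminal-like nuclei per sow, with a median of 68.0%. T and NK-like nuclei, which are not expected to make KIT as a class, had one in 1.79% to 22.3%. Median depths differed, 1663 to 3939 UMIs in luminal-like and 786 to 1513 in T and NK-like nuclei. When every nucleus was thinned to 1000 UMIs, the shares were 6.86% to 69.2% with a median of 43.0% and, in T and NK-like nuclei of 9 sows, up to 27.6% with a median of 14.2%. The part of free RNA in the KIT counts outside the epithelium was not tested, and 2 epithelial references were set beside them, the milk protein genes and the epithelial factors ELF5 and EHF. As a ratio to the luminal level of the same sow, KIT in blood endothelial-like nuclei lay above both references in 10 of 10 sows. In T and NK-like nuclei it lay above the milk proteins in 4 of 10 and above ELF5 and EHF in 6 of 10, and in fibroblast-like nuclei in 5 and 6 of 10. The counts were 9 and 9 of 10 in macrophage-like, 8 and 10 of 10 in lymphatic endothelial-like and 7 and 7 of 10 in myoepithelial-like nuclei.

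KITLG had a different order from its receptor. It was called higher in blood endothelial-like nuclei (log2 fold change 2.60, SE 0.22, adjusted p = 1.95e-17, edgeR) and in myoepithelial-like nuclei (2.07, SE 0.24, adjusted p = 2.73e-11, edgeR; 7.05% of all genes were called higher in this class). Levels ran from 78.4 over 141 to 250 CPM in blood endothelial-like and from 7.02 over 124 to 275 CPM in myoepithelial-like nuclei, as lowest, median and highest sow. In luminal-like nuclei they ran from 3.97 over 18.1 to 60.8 CPM. Both classes exceeded the luminal level of the same sow in 10 of 10 sows, by a median ratio of 8.46 for blood endothelial-like and 5.15 for myoepithelial-like nuclei. They did not differ from each other beyond their spread (0.60 ± 1.31 on the log2 scale, SD, n = 10; exact sign-flip permutation test, adjusted p = 0.588). KITLG was called lower in macrophage-like (-1.47), lymphatic endothelial-like (-1.54) and T and NK-like nuclei (-1.37), with 7.5%, 3.58% and 7.83% of all genes called lower there. Each of these calls was lost when a class needed 3 markers, at -1.15 in macrophage-like, -1.64 in lymphatic endothelial-like and -1.06 in T and NK-like nuclei. The lymphatic one was also lost when nuclei with second-class markers were left out (-0.82).

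SOX9 was highest in myoepithelial-like nuclei of 10 of 10 sows. Its level there ran from 35.8 over 102 to 262 CPM, against 18.9 over 29.7 to 66.0 CPM in luminal-like nuclei. The called difference of myoepithelial-like nuclei from the other classes was 3.55 on the log2 scale (SE 0.26, adjusted p = 1.28e-21, edgeR). Between the 2 epithelial layers it was 1.55 ± 0.90 (SD, n = 10 sows; exact sign-flip permutation test, p = 0.00195, the smallest that 10 sows allow, adjusted p = 0.082 over 42 pairs of neighbouring classes). In the other classes the SOX9 medians were at most 20.6 CPM, and 1 to 3 sows of each class among those present in 8 or 10 sows were at 0. SOX10 was shared by both layers. It was called higher in myoepithelial-like nuclei by 1.42 (SE 0.16), its range was 89.6 over 117 to 205 CPM there and 61.9 over 104 to 225 CPM in luminal-like nuclei, and each layer was the highest class in 5 sows. The layers overlapped (0.20 ± 0.65 on the log2 scale, SD, n = 10; exact sign-flip permutation test, adjusted p = 0.674). In the other classes present in 8 or 10 sows, the median SOX10 ratio to the luminal level ran from 0.265 (macrophage-like) to 0.734 (B and plasma-like). That ratio lay above the milk proteins, and above ELF5 and EHF, in 7 and 8 of 8 sows in B and plasma-like nuclei. These counts were 9 and 10 of 10 in lymphatic endothelial-like and, at the lowest, 7 and 8 of 10 in fibroblast-like nuclei. The part of free RNA in them was not tested. Over the 84 sums of sow and class, which share libraries, SOX9 and SOX10 had the closest profiles of any pair of the 6 genes (Pearson r = 0.561), followed by KIT and SOX10 (0.333).

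ALDH1A3 was called higher in fibroblast-like nuclei (2.41, SE 0.23, adjusted p = 3.67e-14, edgeR; 8.87% of all genes) as well as in luminal-like nuclei, and each was the highest class in 5 of 10 sows. The fibroblast level was narrow, from 132 to 229 CPM in 9 sows and 458 CPM in L20 replicate 1. The luminal level was wide, from 11.6 to 622 CPM. The fibroblast level, as a ratio to the luminal level, exceeded that of both epithelial references in 10 of 10 sows. This was not particular to fibroblast-like nuclei. ALDH1A3 lay above the milk proteins, and above ELF5 and EHF, in 9 and 9 of 10 sows in lymphatic endothelial-like nuclei. The counts were 8 and 10 of 10 in macrophage-like, 7 and 7 in myoepithelial-like, 6 and 8 in blood endothelial-like and 4 and 5 in T and NK-like nuclei. CD14 was called higher in macrophage-like nuclei (1.66, SE 0.23, adjusted p = 2.74e-09, edgeR; 10.1% of all genes) and was the highest class there in 5 sows, in luminal-like nuclei in 4 and in T and NK-like nuclei in 1. Its macrophage level ran from 20.5 over 43.4 to 135 CPM and its luminal level from 1.77 over 51.1 to 115 CPM, and these did not differ beyond their spread (exact sign-flip permutation test, adjusted p = 0.674). Over 42 pairs of neighbouring classes a single pair could not pass the adjustment at this number of sows, so these values do not show that classes had equal levels.

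Mural-like nuclei (4 sows) and adipocyte-like nuclei (2 sows) gave the 3 remaining calls, higher KITLG (1.76) and lower SOX10 (-1.64) in mural-like and lower KIT (-1.30) in adipocyte-like nuclei, against 5.44%, 4% and 6.1% of all genes in those directions. Both mural calls were lost without PI7 replicate 1 (1.64 and -1.27). That of KITLG was also lost with 3 markers a class (2.08, adjusted p = 0.0521, edgeR), and that of SOX10 in 5 other alternatives (-1.81 to -1.33), among them DESeq2 and the fit with no replicate block. In 3 further alternatives the SOX10 call held, but its value ran from -9.63 to -1.68. The adipocyte call was lost without either of its sows, at -1.40 without L20 replicate 2 and -1.15 without PI2 replicate 1, and in 6 other alternatives (-1.51 to -0.85), among them 3 markers a class, thinned nuclei and no replicate block.

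**Figure D1:**
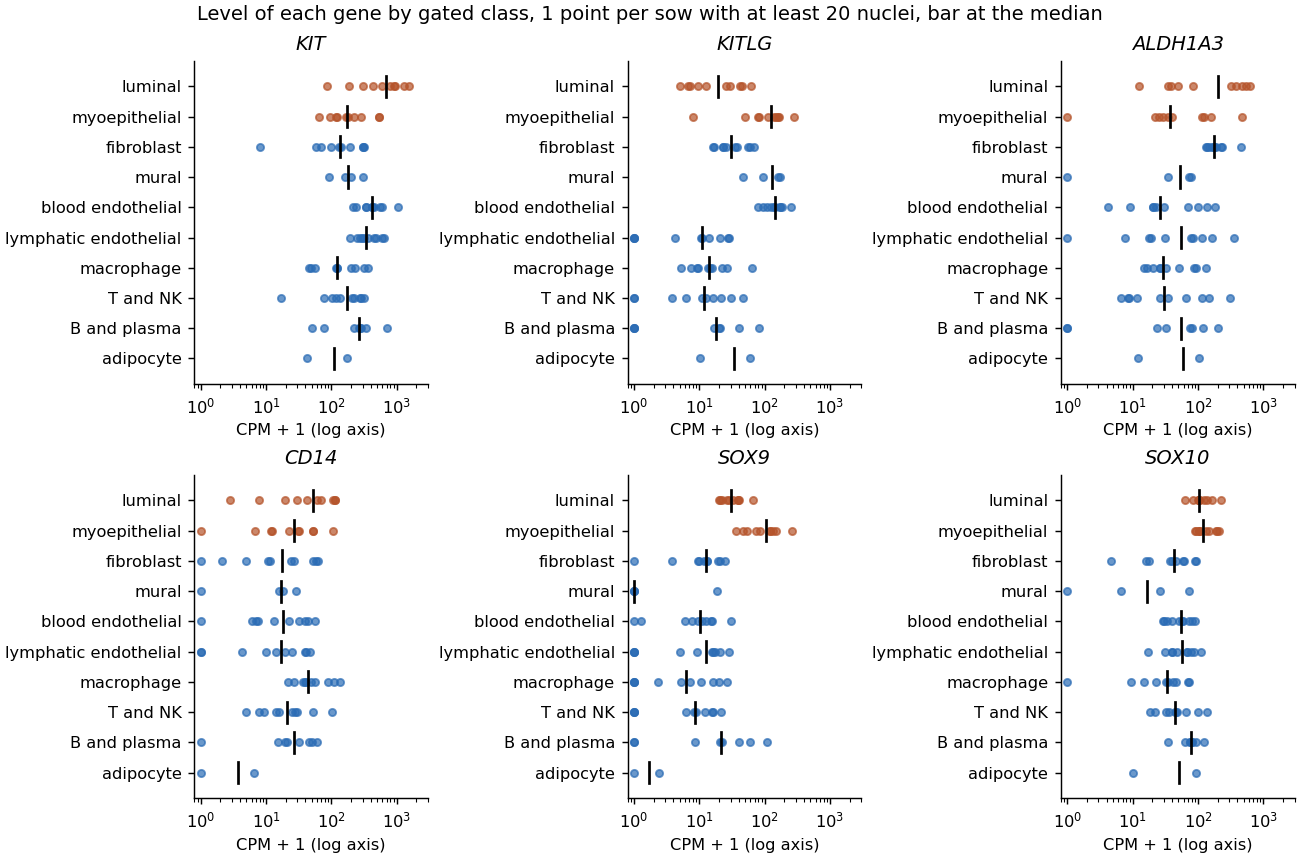
Levels of the 6 genes in CPM + 1 on a log axis by marker-assigned class, 1 point per sow. SOX9 is highest in myoepithelial-like nuclei in each sow, KITLG lies higher in blood endothelial-like and myoepithelial-like nuclei than in luminal-like nuclei, and CD14 overlaps between macrophage-like and luminal-like nuclei.

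Related genes of the same pathways were described by count. Of all genes, 12.5% were called higher and 9.98% lower in luminal-like nuclei, and the shares called higher were 10.1% in macrophage-like, 7.05% in myoepithelial-like, 8.87% in fibroblast-like and 8.55% in blood endothelial-like nuclei. Of 12 tested companions of luminal progenitors, 7 were called higher in luminal-like nuclei and none lower, with a median of 1.74 against 0.30 for all genes, led by the transcription factors ELF5 (3.06) and EHF (2.96) and the GABA receptor subunit GABRP (2.71). Of 16 KIT signalling genes, the transcription factors STAT5B (2.05) and STAT5A (1.83) were called higher and the adaptor SH2B3 (-1.76) lower, and 2 of 16 is the same share as over all genes. Of 10 genes of the retinoic acid pathway, RARG (1.45), DHRS3 (1.37) and ALDH1A1 were called higher and the receptor RARB (-1.11) lower. SOX13 (1.14) was the 1 called of 6 other SOX genes. LBP (2.40), TLR2 (1.17) and TLR4 (1.14), which bind or sense lipopolysaccharide and bacterial lipids with CD14, were called higher among 11 genes of that pathway. In macrophage-like nuclei 8 of these 11 were called higher, led by CD180 (3.67), TLR4 (2.88) and TLR2 (2.41). In myoepithelial-like nuclei the keratins KRT23 (3.93) and KRT15 (3.28) and the integrin ITGA2 (2.34) led 4 companions that were called higher, while PROM1 (-1.51) was called lower. There, RARB (1.79), RARG (1.58) and DHRS3 (1.31) were called higher and ALDH1A2 (-1.18) lower, of the 10 retinoic acid genes. In fibroblast-like nuclei, where ALDH1A3 was high, STRA6 (4.05), ALDH1A1 (2.94) and RARB (1.80) were called higher, and STRA6 is a receptor for vitamin A uptake. In blood endothelial-like nuclei the called genes included SOX17 (6.12), SOX18 (5.27) and ALDH1A2 (2.52).

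The genes most like each member over the 84 sums were chosen among 10257 genes by Pearson correlation of log2(CPM + 1). For KIT these were MRTFB (0.733), STOX2, PKP4, NEBL and MTHFD2L. For KITLG they included DACH1 (0.762), LIMS2, PLCB1 and LIMA1. ALDH1A3 was closest to OLFML3 (0.699), MMP7, MRPS26, DAZAP2 and HNRNPH1. CD14 was closest to BHLHE40 (0.756), followed by complement C3, SDCBP, PLP2 and LBP. For SOX9 they were the desmosome gene DSP (0.647), IL20RA, FGFR2, ANK3 and PERP. For SOX10 they were PTPRF (0.739), MGST1, the luminal transcription factor GATA3, STAT5A and PLPP2.

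The stages of the cycle were then compared within luminal-like nuclei and within whole glands. With 2 sows a stage, no gene among the 6 was called in any of 5 contrasts, 0 of 30 tests in luminal-like nuclei (0.00309% of the tests of all genes were called) and 0 of 30 in whole glands (0% of all tests). At an unadjusted p under 0.05 there were 3 of 30 in luminal-like nuclei, against 8.38% of all tests, and 5 of 30 in whole glands, against 6.16%. By DESeq2, 3 of the 30 tests were called in each. The shares above are of edgeR, and the share of all tests that DESeq2 called is not given here, so this count has no reference. A p that misses the threshold with 2 sows a stage does not show that levels were equal.

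CD14 had its lowest luminal levels at G90. The G90 sows had 6.94 and 1.77 CPM, the L0 sows 42.0 and 18.5, the L20 sows 67.9 and 60.2, the PI2 sows 29.2 and 115, and the PI7 sows 105 and 112. Both G90 sows lay below every sow of the other stages. L0 minus G90 was 3.29 on the log2 scale (SE 0.80, adjusted p = 0.127, edgeR), and it was called by DESeq2 (3.25, adjusted p = 0.00118), with only these stages in the fit (3.21, adjusted p = 0.0316, edgeR) and without the filter on low counts (3.28, adjusted p = 0.0334, edgeR). Without both L20 libraries in the fit it was 3.29 (adjusted p = 0.122, edgeR), and with 1 sow left out it ran from 2.60 (without L0 replicate 1) to 4.23 (without G90 replicate 1). Whole glands gave 7.31 and 2.05 CPM at G90 and 42.9 and 19.9 CPM at L0, and a difference of 3.28 (adjusted p = 0.366, edgeR). The whole-gland difference was called in 2 alternatives (3.23 and 3.28). In whole glands, fewer cells of a type and less RNA per cell cannot be told apart.

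ALDH1A3 in luminal-like nuclei was lower in both L0 sows than in any sow of the later stages. The G90 sows had 81.8 and 11.6 CPM, the L0 sows 37.1 and 34.0, the L20 sows 622 and 323, the PI2 sows 383 and 47.8, and the PI7 sows 477 and 537. The G90 sows lay on either side of the L0 sows, and the PI2 sows differed 8.02-fold from each other. L20 minus L0 was 3.34 (SE 0.97, adjusted p = 0.187, edgeR) and was called by DESeq2 (3.38, adjusted p = 0.00409). With 1 sow left out it ran from 2.44 (without L20 replicate 1) to 3.89 (without L20 replicate 2). This contrast rests on the libraries labelled L20, and without them no such comparison remains.

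KIT differed most between the sows of PI2 in luminal-like nuclei. The G90 sows had 588 and 309 CPM, the L0 sows 923 and 1536, the L20 sows 187 and 433, the PI2 sows 1310 and 86.2, and the PI7 sows 932 and 781. Both L0 sows lay above both sows of G90 and of L20, while the PI2 sows, 15.2-fold apart, were among the highest and the lowest, and the PI7 sows overlapped with L0. L20 minus L0 was -2.56 (SE 0.90, adjusted p = 0.251, edgeR), called by DESeq2 (-2.50, adjusted p = 0.0455) and, by edgeR, without PI2 replicate 1 (-2.39) or without PI2 replicate 2 (-2.39, adjusted p = 0.0483). In whole glands the KIT level was 875 and 1467 CPM at L0 against 178 and 154 CPM at L20 (-3.29, adjusted p = 0.209, edgeR), and DESeq2 called it (-3.32, adjusted p = 0.00394). The makeup of the glands differed as well, since luminal-like nuclei were 62.1% and 63.9% of nuclei at L0 but 55.7% in L20 replicate 1 and 8.84% in L20 replicate 2, which had 30.3% fibroblast-like nuclei. The part of this in the whole-gland value was not tested.

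For KITLG in luminal-like nuclei the G90 sows had 60.8 and 8.69 CPM, the L0 sows 6.27 and 5.62, the L20 sows 11.4 and 40.6, the PI2 sows 24.7 and 3.97, and the PI7 sows 43.5 and 28.0. Both L0 sows and 1 PI2 sow were lowest, and L0 minus G90 was -2.01 (SE 0.91, adjusted p = 0.423, edgeR). SOX9 ranged from 18.9 to 66.0 CPM. Both L0 sows lay below both sows of G90, PI2 and PI7, while the L20 sows lay on either side of them. The mean SOX9 level was 35.9 CPM at G90 and 20.4 CPM at L0, without the scaling between libraries that the fits use. SOX10 ranged from 61.9 to 225 CPM with overlapping stages. In the fits, the SOX9 differences between successive stages ran from -0.42 to 0.25 and those of SOX10 from -0.66 to 0.64 on the log2 scale.

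In myoepithelial-like, fibroblast-like, blood endothelial-like and macrophage-like nuclei, none of 110 tests was called (0.000471% of the tests of all genes), and 19 had an unadjusted p under 0.05, against 4.91% of all tests. KIT had such a p for L20 minus L0 in all 4 classes (-2.36, -2.22, -1.31 and -2.61) and CD14 for L0 minus G90 in fibroblast-like (3.93), blood endothelial-like (3.05) and macrophage-like nuclei (2.02). ALDH1A3 had it for L20 minus L0 in myoepithelial-like (3.99) and blood endothelial-like nuclei (2.94). In each of these the luminal difference had the same sign, and the part of free luminal RNA in these classes was not tested. SOX10 in macrophage-like nuclei did not follow the luminal level, with -3.03 for L0 minus G90 and 3.02 for L20 minus L0 against 0.05 and -0.44 in luminal-like nuclei. L0 replicate 2 had no SOX10 UMI in that class, which held 42 nuclei there. For L0 minus G90, KIT also had such a p in myoepithelial-like (1.94), blood endothelial-like (1.36) and macrophage-like nuclei (1.43), and SOX10 in myoepithelial-like nuclei (1.09). The other 4 of the 19 were lactation minus the other stages for SOX10 in myoepithelial-like (0.83) and CD14 in fibroblast-like (1.66) and macrophage-like nuclei (1.51), and PI2 minus L20 for CD14 in macrophage-like nuclei (-1.32).

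**Figure D2:**
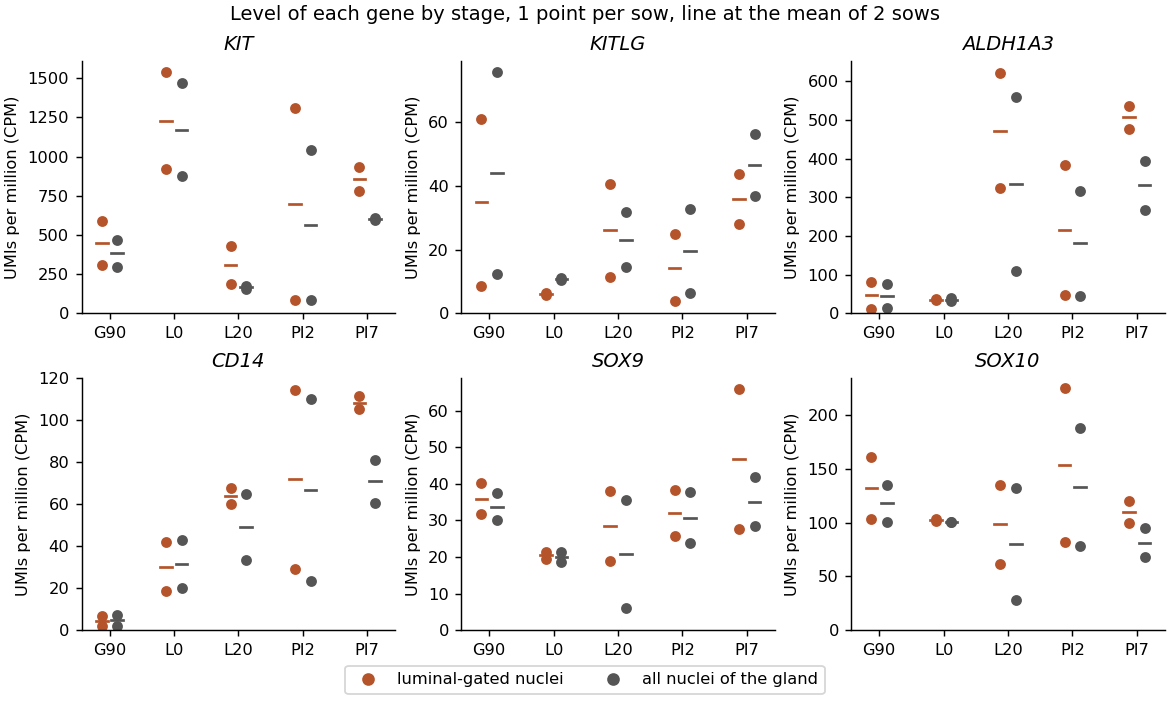
Levels of the 6 genes in CPM on a linear axis by stage, 1 point per sow, in luminal-like nuclei and in whole glands. CD14 is lowest at G90, KIT at L0 lies above G90 and L20, and the 2 sows of PI2 lie far apart for KIT and ALDH1A3.

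Luminal-like nuclei were then split by 6 hormone-sensing markers (ESR1, PGR, FOXA1, TBX3, ERBB4 and AREG), none of which is a member. KITLG was higher in hormone-sensing nuclei of 10 of 10 sows. The levels in hormone-sensing and remaining nuclei of the same sow were 110 and 48.5, 36.3 and 7.26 CPM at G90, 8.34 and 5.84, 10.8 and 5.06 at L0, and 108 and 4.96, 149 and 16.9 at L20. At PI2 they were 81.3 and 15.3, 22.8 and 3.27 CPM, and at PI7 101 and 23.6, 157 and 14.2 CPM. The smallest gaps were at L0. The difference of 2.35 on the log2 scale was called (SE 0.36, adjusted p = 0.00460, edgeR), and 2.26% of all genes were called higher. It stayed called in each alternative, between 2.03 (both L20 libraries left out, adjusted p = 0.0112, edgeR) and 2.59.

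The other 5 genes were lower in hormone-sensing nuclei by less than the size needed for a call. The log2 differences were -0.80 for ALDH1A3, -0.67 for SOX10, -0.59 for KIT and -0.49 for SOX9, each with an adjusted p under 0.05 by edgeR, which 8.26% of all genes reached in this direction. CD14 had -0.30 (adjusted p = 0.140, edgeR). SOX10 was lower in 10 of 10 sows, KIT, ALDH1A3 and SOX9 in 9 and CD14 in 8. The median of all genes was -0.16. None of these 4 kept an adjusted p under 0.05 when the sow was not in the model or when both L20 libraries were left out (0.0718 to 0.193 in the latter), and that of SOX9 was also lost when nuclei with second-class markers were left out (-0.36, adjusted p = 0.251, edgeR). By edgeR the adjusted p of SOX10 passed 0.05 without L20 replicate 2, PI2 replicate 1, PI7 replicate 1 or PI7 replicate 2 (up to 0.0803), that of KIT without PI7 replicate 2 (0.0610), and that of SOX9 without any 1 sow other than L0 replicate 1 or PI7 replicate 2 (up to 0.0970). Hormone-sensing nuclei were deeper, at 3450.5 to 5580 median UMIs against 1616 to 3620. Of the listed genes, PROM1 (1.75) and ALDH1A1 (1.84) were called higher and CYP26B1, which breaks down retinoic acid, lower (-1.25).

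Nuclei with dividing markers were compared in the same way in 9 sows, and none of the 6 genes was called (2.83% of all genes were). KIT had a difference of -0.36 (SE 0.10, adjusted p = 0.0126, edgeR) and was lower in 7 of 9 sows, and without both L20 libraries it had -0.26 (adjusted p = 0.0997, edgeR). The other differences ran from -0.49 (CD14) to 0.46 (KITLG), with adjusted p values of at least 0.086 by edgeR.

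**Figure D3:**
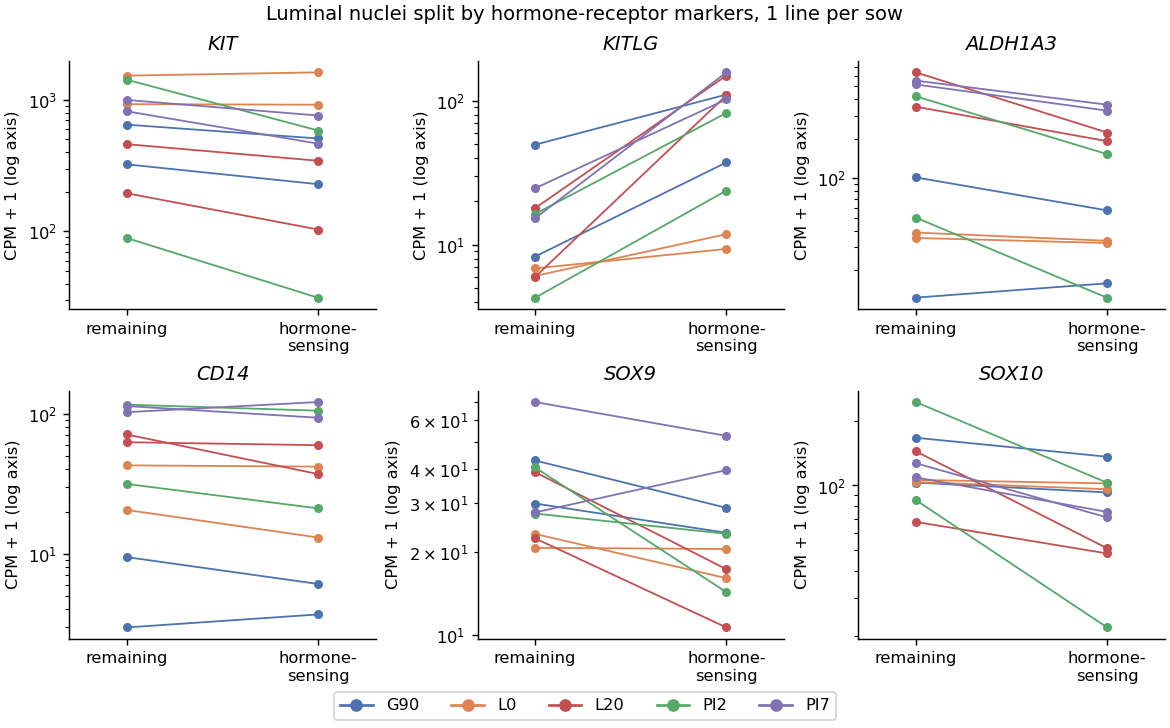
Levels of the 6 genes in CPM + 1 on a log axis in hormone-sensing and remaining luminal-like nuclei, with lines that join the nuclei of 1 sow. The KITLG line rises toward hormone-sensing nuclei in 10 of 10 sows, and the SOX10 line falls in 10 of 10.

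To see which members were found in the same nuclei, luminal-like nuclei with at least 1 UMI of a gene were compared with those that had none. Of 30 ordered pairs, 1 was called (1.18% of the tests of all genes) and 8 had an adjusted p under 0.05 (8.83%). KITLG was lower in KIT-positive nuclei, by -1.12 on the log2 scale (SE 0.17, adjusted p = 0.000310, edgeR; 2.03% of all genes were called lower). This value fell below the size needed for a call without PI7 replicate 2 (-0.98), without both L20 libraries (-0.98, adjusted p = 0.000336, edgeR), when nuclei with second-class markers were left out (adjusted p = 5.33e-06, edgeR) and when nuclei were thinned to 1000 UMIs (-0.69, adjusted p = 0.00172, edgeR), and without the sow in the model its adjusted p did not pass. In the reverse split, KIT was lower in KITLG-positive nuclei by -0.52 (adjusted p = 9.85e-05, edgeR), as were SOX10 (-0.60) and ALDH1A3 (-0.38). The ALDH1A3 difference rested on an adjusted p of 0.0482 by edgeR, which did not pass by DESeq2 (-0.22, adjusted p = 0.510) or without PI2 replicate 1 (-0.25, adjusted p = 0.251). Without the sow in the model none of these 3 passed.

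KIT-positive nuclei had more SOX10 (0.29, SE 0.06, adjusted p = 0.00148, edgeR) and ALDH1A3 (0.58, SE 0.17, adjusted p = 0.0338, edgeR), the latter at an adjusted p of 0.0710 by edgeR without both L20 libraries. SOX10-positive nuclei had more KIT (0.19, adjusted p = 0.0180, edgeR) and less KITLG (-0.52, adjusted p = 0.000207, edgeR). The KIT difference was 0.10 without PI7 replicate 1 (adjusted p = 0.239, edgeR), 0.17 without both L20 libraries (adjusted p = 0.0550, edgeR) and 0.07 in thinned nuclei (adjusted p = 0.720, edgeR). In thinned nuclei ALDH1A3 in KIT-positive nuclei (0.34, adjusted p = 0.205, edgeR) and KITLG in SOX10-positive nuclei (-0.59, adjusted p = 0.131, edgeR) did not pass either, while SOX10 in KIT-positive nuclei did (0.23, adjusted p = 0.00592, edgeR). Without the sow in the model none of these 4 passed. The splits by ALDH1A3, CD14 and SOX9 gave no pair with an adjusted p under 0.05. Of the listed genes, ALDH1A1 (1.54), PROM1 (1.52) and RARB (1.22) were called higher in KITLG-positive nuclei, and PROM1 and ALDH1A1 were also those called higher in hormone-sensing nuclei. GABRP (1.03) was called higher in ALDH1A3-positive nuclei.

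**Figure D4:**
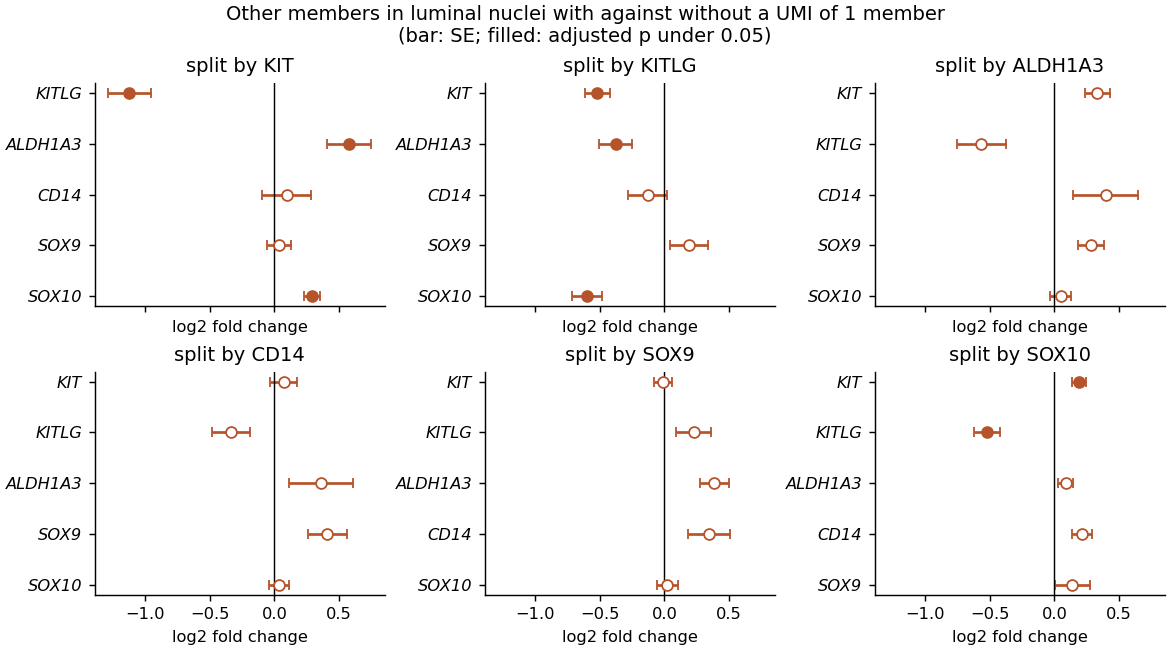
Log2 fold change of the other 5 genes between luminal-like nuclei with and without a UMI of 1 gene, 1 panel per splitting gene, with the SE as bars and filled points at an adjusted p under 0.05. KITLG lies to the left of 0 in the KIT and SOX10 panels, and KIT, SOX10 and ALDH1A3 lie to the left in the KITLG panel.

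In milk cells, with 1 library per day, no test was possible, and the intervals are exact Poisson or binomial ones at 95% that cover counting error only. Luminal-like cells had 60.4 CPM of KIT (58.4 to 62.4; 3398 cells) in the L0 library and 11.02 CPM (9.08 to 13.3; 1339 cells) in the L20 library. A KIT UMI was present in 43.0% of these cells at L0 and 6.57% at L20, at median depths of 15402.5 and 2661 UMIs. Neutrophil-like cells, which should lack KIT, had one in 1.02% and 0.230%, at median depths of 1225 and 1172 UMIs. T and NK-like cells, the reference in the gland, had one in 4.25% at L0 (28.2 CPM, 16.1 to 45.8; 306 cells) and 0.360% at L20 (3.76 CPM, 1.62 to 7.41; 1112 cells). Thinned to 1000 UMIs they had 26.6 CPM (10.7 to 54.8) at L0, an interval that reached the lower end of the thinned luminal one. SOX10 was 62.0 CPM at L0 and 37.3 at L20 in luminal-like cells, ALDH1A3 38.1 and 26.4 CPM, and SOX9 19.3 and 11.8 CPM. When every cell was thinned to 1000 UMIs, KIT was 60.1 CPM (52.0 to 69.1; 3295 cells) at L0 and 11.2 CPM (6.14 to 18.9; 1246 cells) at L20. The intervals of the other 3 genes then overlapped between the days, with SOX10 at 67.1 CPM (58.5 to 76.5) and 57.8 CPM (45.2 to 72.8), ALDH1A3 at 45.5 and 42.5 CPM, and SOX9 at 21.2 and 15.2 CPM. Without thinning the intervals stayed apart for SOX10 (60.0 to 64.1 and 33.6 to 41.2), ALDH1A3 (36.5 to 39.7 and 23.4 to 29.8) and SOX9 (18.2 to 20.4 and 9.79 to 14.1). Thinning left fewer UMIs, 70 and 19 for SOX9, so the overlap does not show equal levels. A lower level in the L20 library held with and without thinning for KIT, but only without it for the other 3. With 1 library a day, the day is not separated from the sow. KITLG was close to absent, with 39 UMIs in luminal-like cells at L0 and 1 at L20, or 0.670 and 0.0975 CPM.

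CD14 was highest in neutrophil-like milk cells, at 1427 CPM (1406 to 1449; 8513 cells) in the L0 library and 845 CPM (822 to 868.3; 4355 cells) in the L20 library. This class rests on CSF3R, MMP8, IL1R2 and S100A8. The study lists CSF3R, MMP8 and IL1R2 as monocyte markers and S100A8 as a macrophage marker, and names no neutrophil class among its milk cells. Macrophage-like cells had 336 and 322 CPM, luminal-like cells 103 and 70.5 CPM, and T and NK-like cells 45.8 and 34.3 CPM. A CD14 UMI was present in 52.3% of luminal-like cells at L0 and 21.9% at L20, and in 6.21% and 4.32% of T and NK-like cells, whose median depths were 1651 and 1634.5 UMIs. Thinned to 1000 UMIs, these shares were 9.07% and 8.03% of luminal-like and 4.56% and 2.21% of T and NK-like cells. The thinned luminal level was 118 CPM (107 to 131) at L0 and 112 CPM (94.5 to 133) at L20, so the days overlapped. Without thinning the luminal intervals stayed apart (100 to 105 and 65.5 to 75.9 CPM). Thinned macrophage-like cells had 353 CPM (299 to 414) at L0 and 500 CPM (464 to 538) at L20, intervals that stayed apart. With second-class cells left out they had 263 and 417 CPM, but with 3 markers a class 346 and 311 CPM. The order of the days in macrophage-like cells thus depended on the processing.

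In the sections, spots are small regions that can hold several cells, and 4721 spots at G90 and 2248 at PI2 were counted. CD14 was 29.8 CPM at G90 (28.2 to 31.5) and 185 CPM at PI2 (179 to 191). In the 25% of spots richest in luminal markers it was 31.7 and 300 CPM, and in the 25% richest in macrophage markers 40.3 and 189 CPM. ALDH1A3 was 57.5 and 86.4 CPM over all spots, and 90.0 and 167 CPM in the luminal-rich spots. KITLG was 57.6 and 23.2 CPM, KIT 78.5 and 65.5 CPM, SOX9 34.0 and 31.5 CPM, and SOX10 273 and 244 CPM.

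SOX9 and SOX10 were lowest in the fibroblast-rich spots of the PI2 section, at 7.14 CPM (3.69 to 12.5) and 111 CPM (95.3 to 128), against 47.3 and 279 CPM in the luminal-rich spots. At G90 the same sets of spots had 29.6 and 40.5 CPM of SOX9. ALDH1A3, which was high in fibroblast-like nuclei, had 39.3 CPM in the fibroblast-rich and 167 CPM in the luminal-rich spots at PI2. The luminal-rich and myoepithelial-rich spots, which can hold both layers, had overlapping intervals at PI2 for CD14 (300 and 311 CPM), ALDH1A3 (167 and 155), SOX9 (47.3 and 41.3) and SOX10 (279 and 278).

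**Figure D5:**
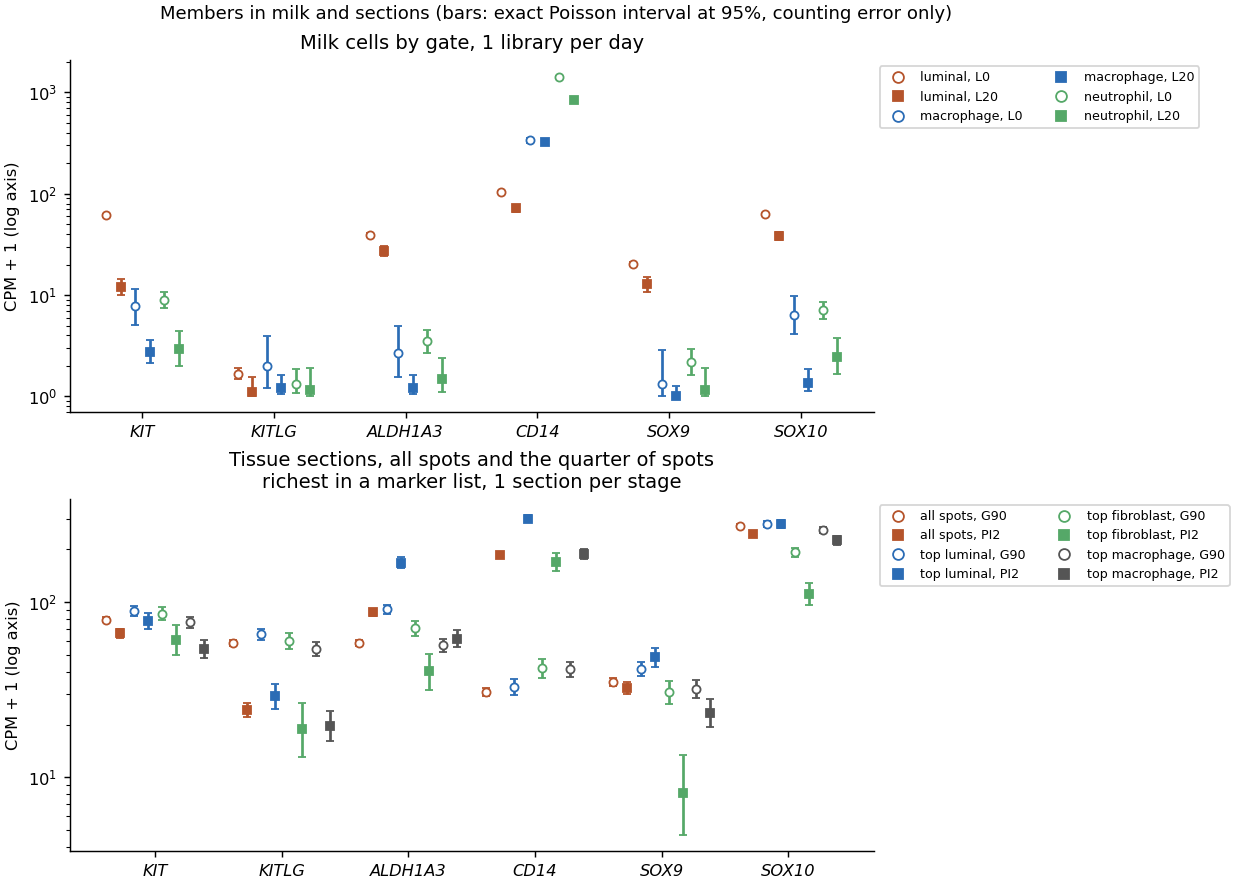
Levels of the 6 genes in CPM + 1 on a log axis in milk cells by class (above) and in spots of the sections (below), 1 library or section per stage, with exact Poisson intervals at 95% as bars. CD14 is highest in neutrophil-like milk cells and is higher in the PI2 than in the G90 section in each set of spots shown.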

How the data were processed

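Nuclei of 10 glands, spots of 2 sections and cells of 2 milk libraries were analysed from UMI counts per gene, which the authors deposited as matrices without normalization. Per the study's methods, gland and milk reads were processed with CeleScope against Sscrofa11.1. For the sections the submitters' processing notes name Space Ranger 1.2.0 and Seurat 4.3.0, while the file headers carry another Space Ranger release. The sources used here do not state the strand used in counting.

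Nuclei and cells with 300 or more genes and no more than 25% of UMIs from mitochondrial genes were kept. A class was assigned to nuclei with at least 2 markers of it, and no doublet caller was run. Instead, nuclei with at least 2 markers of a second class were left out as an alternative. UMIs were summed per sow and class over at least 20 nuclei, and the sow was the replicate, since nuclei of 1 sow are not independent. Sums were tested with the quasi-likelihood test of edgeR 4.0.16 in R 4.3.3 after TMM scaling and filterByExpr, with Benjamini-Hochberg adjustment over all genes. DESeq2 1.42.0 was an alternative. Levels are UMIs per 1000000 UMIs of a sum without TMM scaling. The log2 fold changes of the fits include that scaling, so they need not match the ratio of the printed levels. Sows were euthanized at their stage, so replicate numbers of different stages do not pair sows, whereas class and subset fits blocked by sow. Correlations of deviations between stages ran from -0.50 to 0.36, above 0.1 for 3 of 10 pairs. They cannot show whether libraries were processed together. The scripts were tested on simulated data. In the luminal-like L0 minus G90 fit, 0 of 100 genes simulated at a log2 fold change of 1.5 were recovered, and 19 of 100 at 3. The KIT-positive split recovered 99 of 100 and 100 of 100, and the luminal class fit 99 of 99 and 89 of 90. This stage fit could thus miss large changes. Named genes were the 6 members, up to 3 called genes a direction from each of 6 lists, and for each member the 5 genes most correlated with it among genes with a mean of at least 10 CPM, of which 1 is not reported here. The members and lists were chosen with earlier results of these data known. Other alternatives were no filter on low counts, 3 markers for a class, sums over at least 50 nuclei, stricter nuclei, thinning to 1000 UMIs (2000 for spots), other spot ranks and each sow left out. Leaving out both L20 libraries was chosen after seeing the data. Python 3.11.15 was used for sums, intervals and plots.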

Additional observations from a re-analysis of the deposited data

Results flagged for a closer look

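A sample was picked out where its gap to the nearest other sow, as a share of the whole range of log2(CPM + 1), passed Dixon's critical value, which chance does in about 1 in 20 groups. This held for 8 of 54 groups. PI2 replicate 2 was lowest for KIT in T and NK-like nuclei (share 0.520, 15.9 CPM against 76.4 to 314 in the other sows), for KIT in fibroblast-like nuclei (0.536, 7.22 CPM against 57.2 to 316) and for KITLG in myoepithelial-like nuclei (0.515, 7.02 CPM against 48.5 to 275). These sums of PI2 replicate 2 held 168, 133 and 80 nuclei. L20 replicate 1 was highest for ALDH1A3 in fibroblast-like nuclei (0.557, 458 CPM against 132 to 229). A level of 0 CPM stood apart in L0 replicate 1 for ALDH1A3 in myoepithelial-like nuclei (69 nuclei, share 0.503, others 21.1 to 468). It did so in L0 replicate 2 for SOX10 in macrophage-like nuclei (42 nuclei, share 0.523, others 8.41 to 71.6). CD14 in B and plasma-like nuclei of L0 replicate 2 was also at 0 CPM (23 nuclei, share 0.660, others 14.1 to 60.1). In sums over so few nuclei, a level of 0 does not show that the gene was absent. SOX9 in mural-like nuclei was 17.7 CPM in PI2 replicate 1 (43 nuclei) and 0 in the 3 other sows (29 to 95 nuclei, share 1).

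Over the hormone-sensing and the dividing comparison within luminal-like nuclei, both sows of 1 stage lay on the other side of 0 from both sows of another stage in 7 of 96 stage pairs, and each of these 7 was in dividing minus remaining nuclei. The difference between stages was not tested, and the share of pairs that chance would give is not known here. Some of the values lay near 0, at 0.088 and 0.099 for SOX10 at G90 and 0.151 and 0.066 for ALDH1A3 at L20. Dividing nuclei numbered only 24 in L20 replicate 2 and 23 in PI2 replicate 2. The mean log2 difference at G90 minus that at L20 was -1.01 for ALDH1A3, and that at L20 minus that at PI2 was 0.92. For SOX9, G90 exceeded L0 by 0.92 and PI2 by 1.32. For SOX10, G90 exceeded L0 by 0.51, L20 by 0.84 and PI2 by 1.04.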

How the results depend on the processing

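A part of the tests was followed as single values, with no stage test of myoepithelial-like, fibroblast-like, blood endothelial-like or macrophage-like nuclei among them. These single values kept their direction and side of the threshold in 666 alternatives, became called in 12 and were no longer called in 25. The sign changed in 1, KIT in whole glands for PI2 minus L20, which ran from -0.58 (without PI2 replicate 1) to 2.84 with 1 sow left out. The counts of stage calls below cover all tests of the members and so include further calls. The count of stage calls was 0 in whole glands but 3 by DESeq2 and 2 with only the 2 stages compared. In luminal-like nuclei it was 0 but 3 by DESeq2, 1 without the filter on low counts and 2 with only the 2 stages compared, and leaving out 1 sow gave 0 to 1, the 1 being KIT without PI2 replicate 1 or PI2 replicate 2. Without the filter it was 1 in myoepithelial-like, 2 in fibroblast-like, 1 in blood endothelial-like and 1 in macrophage-like nuclei, and by DESeq2 1 in myoepithelial-like and 1 in macrophage-like nuclei. The replicate block left each stage count at 0, and these numbers only name sows. Shares of all tests called in these alternatives of the stage fits are not given here. The 1 called pair of members was 0 without the sow block (no replicate block), with nuclei thinned to 1000 UMIs, with second-class nuclei left out, without both L20 libraries, and 0 to 1 with 1 sow left out (0 without PI7 replicate 2). The class calls, 18 in all, numbered 14 with 3 markers a class, 15 with second-class nuclei left out and 16 without the block. Shares of all tests called in these alternatives of the pair and class fits are not given here either, so these counts have no reference. CD14 in neutrophil-like milk cells was 1546 CPM with 3 markers, 1346 with stricter cells and 1453 thinned at L0, and 1039 with 3 markers at L20. ALDH1A3 in luminal-rich spots was 150 CPM in the top 10% of spots at G90, and 145 thinned and 328 in the top 10% at PI2. The causes were not tested.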
